A study of Mus musculus with 14 samples.

Results

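Spleen CD4 T cell RNA from Lck-Cre TRAIL-receptor floxed mice given TRAIL (2 libraries) was compared with that from TRAIL-receptor floxed mice given TRAIL (3 libraries). These 5 libraries were chosen by their labels from the 14 of the series, and 1 further library, from floxed mice given vehicle, entered the same fit. As labelled, all mice carried the floxed TRAIL-receptor allele on the C57BL/6 strain, and the TRAIL groups differed by the Lck-Cre transgene. No age, dose schedule or disease induction is given in the labels for these mice, although the title of the series names experimental autoimmune encephalomyelitis. The remaining libraries came from cultured cells and were not used. The comparison asks how these libraries differ, under TRAIL, when T cells are designed to lack its receptor. The series holds no Lck-Cre library given vehicle. An effect of TRAIL therefore cannot be told apart from one of the transgene or of receptor loss itself.

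TRAIL, encoded by Tnfsf10, is a cytokine of the tumour necrosis factor family. In mice it signals through a single death receptor, encoded by Tnfrsf10b, which recruits the adaptor Fadd and caspase 8 and can start apoptosis, while Cflar encodes an inhibitor of that step. In T cells TRAIL is also known to restrain activation through the T cell receptor. The Lck promoter drives Cre recombinase in developing T cells, so that CD4 and CD8 T cells are both targeted, and B cells, myeloid cells and other cells keep the receptor.

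Levels are in TPM, a length-scaled share of each library's transcripts. Of 18855 listed genes, 14176 averaged 1 TPM or more in the 6 mouse libraries and were tested. Differences and fold changes were taken between log2(TPM + 1) values. Depth, recovered from the TPM steps, was 40.1 and 19.2 M reads in the Lck-Cre libraries, 24.3 to 24.7 M in the floxed TRAIL libraries and 56.9 M in the vehicle library. Lck-Cre replicate 1, floxed replicate 1 and the vehicle library were labelled with lane 2, and the rest with lane 4. The bracketed name of Lck-Cre replicate 1 carries no TRAIL tag, and that of the vehicle library names B6, so its genotype may differ. Whether replicates came from separate animals is not stated, so p-values measure only the spread between these libraries, which may be technical.

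The libraries did not hold CD4 T cells alone. The CD4 T cell markers summed to 931 and 1412 TPM in the Lck-Cre libraries, against 457, 917 and 1214 TPM in the floxed libraries. The neutrophil markers summed to 113900 and 20200 TPM in Lck-Cre, against 98250, 31160 and 20880 TPM in floxed, so the lane 2 libraries were high in both groups. S100a8, a calcium-binding protein of neutrophils, was at 26470 and 2628 TPM in Lck-Cre and at 20570, 3199 and 2133 TPM in floxed libraries. B cell markers summed to 21480 and 17710 TPM in Lck-Cre, against 17100 to 20780 TPM in floxed. In such bulk libraries fewer cells of a type and less RNA per cell cannot be told apart. Across the 5 TRAIL libraries, 14.6% of the variance lay between the genotypes and 63.6% between the lanes.

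Lck-Cre replicate 2 and floxed replicate 3 stood apart as a pair because they were nearly alike. Their log2 profiles had r = 0.993 across all tested genes, where every other pair of the 6 libraries had 0.936 to 0.979. The 200 immunoglobulin V genes, whose use depends on which B cell clones a sample holds, had r = 0.994 between these 2 libraries, against 0.861 to 0.903 in the 14 other pairs. Genes are not independent replicates, and these values describe the libraries. Ighv1-81 was at 2408 and 309 TPM in Lck-Cre and at 2172, 785 and 371 TPM in floxed libraries. Ighv1-19 was at 233 and 1666 TPM in Lck-Cre and at 833, 537 and 2032 TPM in floxed libraries. Both V genes, chosen after their values were seen, had the level of Lck-Cre replicate 2 closest to that of floxed replicate 3. The pair still differed by more than counting error, with a median chi-square per gene 3.49 times that of sampling noise, against 12.6 for the next closest pair. The labels do not say whether they share material, and a wrong label was not tested. Each list below is therefore given by pair of libraries: Lck-Cre 1 minus floxed 1 on lane 2, Lck-Cre 2 minus floxed 2 on lane 4, and Lck-Cre 2 minus floxed 3, the near-identical pair, on lane 4.

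**Figure D1:**
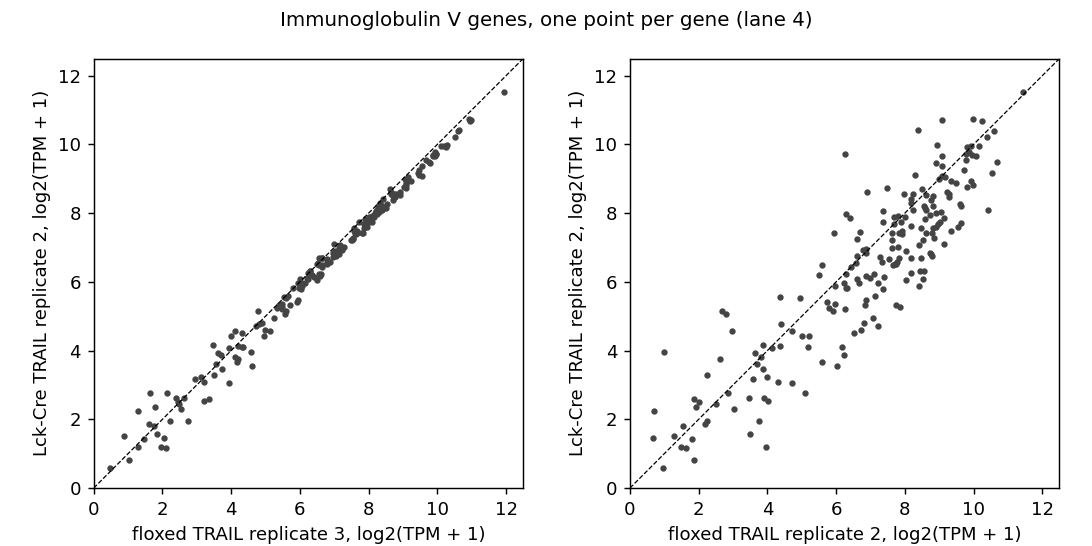
Levels of 200 immunoglobulin V genes, log2(TPM + 1), in Lck-Cre TRAIL replicate 2 (vertical axis) against floxed TRAIL replicate 3 (left) and floxed TRAIL replicate 2 (right), 1 point per gene, with the line of equality dashed. Points lie close to the line on the left (r = 0.994) and scatter more widely on the right (r = 0.901). Most lie below the line in both panels, 164 of 200 on the left and 145 of 200 on the right.

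The gene targeted for deletion came first, as a check of the labels. Tnfrsf10b (chr14:69767472-69784411, GRCm38, plus strand) was at 2.04 and 3.50 TPM in the Lck-Cre libraries and at 1.64, 1.46 and 2.31 TPM in the floxed libraries, with 1.82 TPM in the vehicle library. The groups overlapped and the higher mean was that of Lck-Cre, with a log2 fold change of 0.41 ± 0.29 SE, adjusted p = 0.9998 in limma. It was positive in all 3 pairs, at 0.20, 0.87 and 0.44. A gene-level value does not show which exon was floxed, and cells outside the T lineage keep the gene, so this level does not check the labels. Below, Lck-Cre means the libraries labelled so.

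The rest of the death receptor pathway did not separate the groups. Tnfsf10 itself was at 10.98 and 18.7 TPM in Lck-Cre and at 8.41, 21.4 and 16.2 TPM in floxed libraries. Casp8, the initiator caspase, was at 75.7 and 79.0 TPM in Lck-Cre, against 79.5, 78.6 and 76.9 TPM in floxed. Cflar was at 125.7 and 109 TPM in Lck-Cre, against 117, 123 and 101 TPM in floxed, and Fas, another death receptor, at 32.9 and 19.7 against 36.9, 36.3 and 18.8 TPM. All of these overlapped between the groups. Of the 33 tested genes of the TRAIL, death receptor and apoptosis list, 13 had a positive log2 fold change and 20 a negative one, with a median of -0.03, against -0.04 over all genes tested. The groups did not overlap for 5 of them, 2 above floxed and 3 below, where 11.3% of all tested genes did not overlap (5.86% above, 5.41% below). These 5, named after their values were seen, were Tnfrsf26 and Bcl2 above, and Bid, Bak1 and Cycs below. Bcl2, an inhibitor of mitochondrial apoptosis, was at 57.3 and 58.6 TPM in Lck-Cre and at 21.3, 36.2 and 50.1 TPM in floxed libraries, a log2 fold change of 0.76 ± 0.36 SE. Bak1, which opens the outer mitochondrial membrane, was at 71.8 and 108 TPM in Lck-Cre and at 111, 138 and 109 TPM in floxed libraries, where the nearest values almost touched. Tnfrsf22, a mouse decoy receptor for TRAIL, was at 5.92 and 9.93 TPM in Lck-Cre and at 3.11, 5.70 and 7.98 TPM in floxed libraries.

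**Figure D2:**
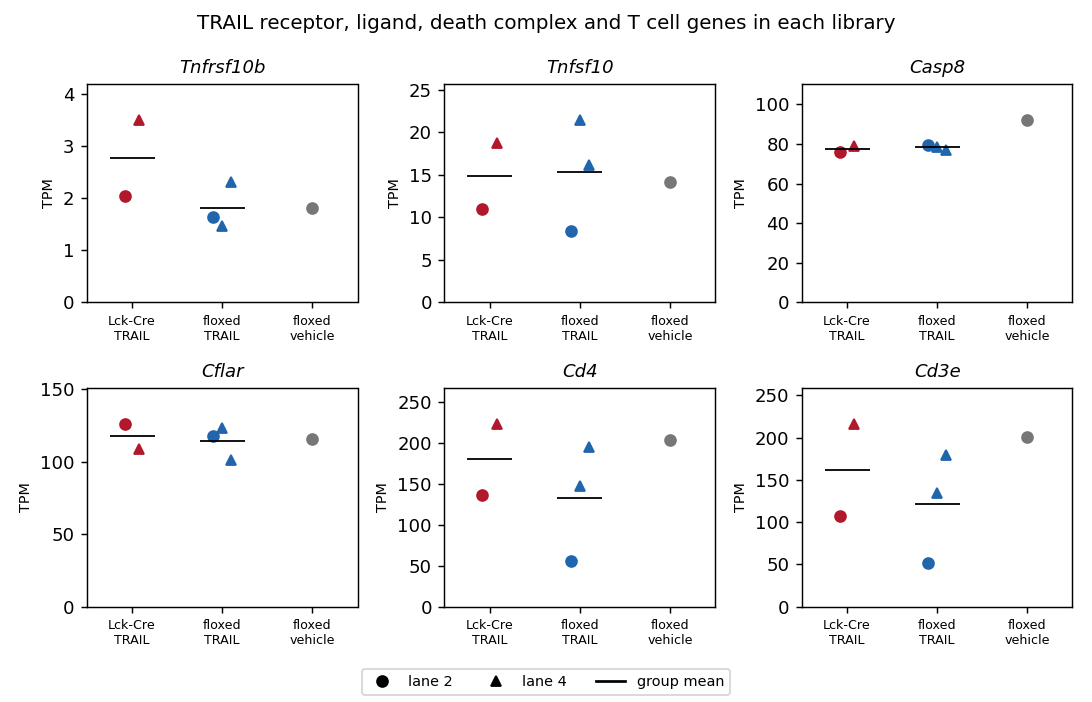
TPM of Tnfrsf10b, Tnfsf10, Casp8, Cflar, Cd4 and Cd3e in each library, for Lck-Cre TRAIL (2 libraries), floxed TRAIL (3) and floxed vehicle (1), with circles for lane 2, triangles for lane 4 and lines at group means. Tnfrsf10b is not lower in the Lck-Cre libraries, and the floxed lane 2 library holds the lowest Cd4 and Cd3e.

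No gene passed across the table. By limma with Benjamini-Hochberg adjustment, 0 of 14176 genes had an adjusted p under 0.05 (0.0%), and the smallest adjusted p was 0.9998. At an unadjusted p under 0.05 there were 106 genes (0.748%), 76 above floxed (0.536%) and 30 below (0.212%). A log2 fold change above 0 was found for 5981 genes (42.2%) and below 0 for 8195 (57.8%). The sign was the same on both lanes for 61.1% of genes, with 32.1% positive and 29.0% negative on both. Across genes the lane 2 and lane 4 differences had r = 0.237, and their SDs were 0.516 and 0.286 on the log2 scale. Leaving out 1 library took the 106 to 744 (Lck-Cre replicate 2), 70 (Lck-Cre replicate 1), 35 (floxed replicate 2) or 219 (floxed replicate 3). Every fold change named here failed the adjusted threshold and is a description of 5 libraries. Genes named below for not overlapping, beyond the named set, were chosen after their values were seen.

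T cell receptor genes showed positive fold changes. The receptor and its kinases carry antigen signals into T cells, and 29 of 36 genes of the T cell receptor signalling machinery had a positive log2 fold change, with a median of 0.53. The median was 1.15 in the lane 2 pair, 0.51 in the Lck-Cre 2 and floxed 2 pair and 0.22 in the near-identical pair. Without floxed replicate 1 the median dropped to 0.003, without Lck-Cre replicate 2 to 0.11, and without both alike libraries it was 0.46. Lck, the kinase whose promoter drives the Cre, was at 146 and 205 TPM in Lck-Cre and at 62.3, 141.5 and 159 TPM in floxed libraries. Trbc2, a constant segment of the receptor beta chain, was at 209 and 241 TPM in Lck-Cre, against 61.9, 144 and 203 TPM in floxed, so its groups did not overlap. The libraries did not overlap for only 2 of the 36 genes, Trbc2 and Plcg1, both above floxed (5.86% of all tested genes lay above so). The transgene may carry its own Lck promoter sequence, and reads from it were not separated.

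All 10 CD4 T cell markers had a positive log2 fold change, with a median of 0.60. Most of them, Cd4, Cd3d, Cd3e, Cd3g, Trac, Cd28 and Cd5, are also in the receptor machinery list, so the lists are not separate observations. Cd4, the coreceptor, was at 137 and 223 TPM in Lck-Cre and at 56.3, 147 and 195 TPM in floxed libraries. Cd3e was at 108 and 216 TPM in Lck-Cre and at 52.3, 134 and 179 TPM in floxed. Floxed replicate 1 was the lowest library for both genes, and the other libraries overlapped. The vehicle library, at 204 and 201 TPM, lay near the top of the TRAIL libraries. Without floxed replicate 1 the median of the CD4 list was 0.07. The part of T cell content in the receptor, naive and Treg lists was not tested. In the CD8 T and NK cell list 10 of 16 genes were positive, with a median of 0.16, and Cd8a was at 22.2 and 50.9 TPM in Lck-Cre against 15.9, 29.2 and 42.4 TPM in floxed.

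The gene segments that are joined into receptors were positive as well. Of 81 tested T cell receptor V genes 74 had a positive log2 fold change, with a median of 0.46, and 14 of the 81 did not overlap, all above floxed (5.86% of all tested genes). The median was 0.14 without floxed replicate 1 and 0.17 without Lck-Cre replicate 2. Of 48 J genes 46 were positive, with a median of 0.65 and 10 not overlapping, all above floxed (5.86% of all tested genes). Without floxed replicate 1 their median was 0.28, and 19 of 48 were negative in the near-identical pair. The J segments are short, so their levels rest on few reads. Traj14, annotated as a J pseudogene and not counted among the 48 (chr14:54205111-54205144), was at 22.2 and 41.4 TPM in Lck-Cre and at 1.91, 10.0 and 10.2 TPM in floxed libraries. Trbj2-4 (chr6:41543362-41543410) was at 15.4 and 12.6 TPM in Lck-Cre and at 3.97, 1.39 and 8.53 TPM in floxed libraries. Both had the 3 floxed values below the lower Lck-Cre value. The summed J segments were at 1052 and 1457 TPM in Lck-Cre and at 407, 879 and 1145 TPM in floxed. The sums overlapped, as did all but 10 of the 48 single segments.

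Genes of naive and resting T cells had positive fold changes in 21 of 26 cases, with a median of 0.43 and 4 that did not overlap, all above floxed (5.86% of all tested genes). Il7r, the interleukin 7 receptor chain that keeps resting T cells alive, was at 217 and 129 TPM in Lck-Cre and at 60.1, 105.5 and 106 TPM in floxed libraries (log2 fold change 0.92 ± 0.35 SE, unadjusted p = 0.0407 in limma). Its difference was 1.83 on lane 2 and 0.28 to 0.29 in the lane 4 pairs. Dapl1, a gene of naive T cells, was at 29.2 and 37.3 TPM in Lck-Cre and at 10.7, 13.4 and 28.5 TPM in floxed. The vehicle library had 292 TPM of Il7r and 77.9 TPM of Dapl1, above all TRAIL libraries. Leaving out floxed replicate 1 took the median of the list to 0.02, and leaving out Lck-Cre replicate 2 to 0.07.

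Activation genes and helper programmes gave no common direction. Of 34 genes induced by the T cell receptor 11 were positive, with a median of -0.09, and the pair medians were 0.08, -0.06 and 0.17. Cd69, an early activation receptor, was at 89.1 and 183 TPM in Lck-Cre and at 47.1, 191 and 161 TPM in floxed libraries. Il2ra, the high-affinity interleukin 2 receptor chain, was at 8.24 and 17.1 TPM in Lck-Cre and at 6.23, 16.2 and 14.8 TPM in floxed. Myc, a growth regulator, was at 93.6 and 153.5 TPM in Lck-Cre and at 77.4, 184 and 149.5 TPM in floxed. In all 3 genes the lane 2 libraries were low in both groups. Th1 genes had a median of -0.06, Th2 genes of -0.01 and Th17 genes of -0.10 over 19, 9 and 13 tested members. Tbx21, the Th1 master regulator, was at 6.20 and 14.8 TPM in Lck-Cre against 4.72, 17.1 and 13.0 TPM in floxed. Ifng, its target cytokine, was at 1.54 and 4.63 against 1.39, 7.19 and 3.59 TPM. Gata3 of Th2 cells was at 14.1 and 38.3 TPM in Lck-Cre against 8.82, 25.3 and 33.0 TPM in floxed. Each of these 3 genes overlapped between the groups. Il17a and 5 other Th17 genes, including the cytokine genes Il17f and Il22, did not enter the test. Treg genes were positive in 14 of 19 cases (median 0.19) and follicular helper genes in 9 of 13 (0.21). The Treg pair medians were 0.48, 0.28 and 0.16. Without Lck-Cre replicate 2 the Treg median was -0.27, and without floxed replicate 1 it was -0.21. The follicular helper pair medians were 0.79, -0.19 and 0.14, and without floxed replicate 1 the median was -0.11. Foxp3, which defines Treg cells, was at 10.5 and 25.2 TPM in Lck-Cre against 6.20, 18.2 and 22.0 TPM in floxed. Immediate early and heat shock genes were negative in 26 of 26 cases with a median of -0.38, and in the near-identical pair in 10 of 26. Without Lck-Cre replicate 1 their median was 0.11. In 1 of 26, Hsp90aa1, the libraries did not overlap (5.41% of all tested genes lay below so). Hsp90aa1, a chaperone, was at 479 and 815.5 TPM in Lck-Cre and at 893.5, 1122 and 944 TPM in floxed. NF-kB targets, which carry inflammatory signals, were positive in 5 of 25 cases (median -0.11), and Il1b was at 91.1 and 307 TPM in Lck-Cre against 482.5, 313 and 313 TPM in floxed. Genes of migration and adhesion were positive in 11 of 25 cases (median -0.03), and Ccr7, a lymph node homing receptor, was at 37.8 and 93.9 TPM in Lck-Cre against 17.5, 52.4 and 80.0 TPM in floxed.

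Interferon response genes had the most negative median of the lists, and the direction rested on the libraries outside the alike pair. All 37 had a negative log2 fold change, where 57.8% of all genes did, with a median of -1.03 and a range of -2.09 to -0.21. The median was -1.02 in the lane 2 pair, where 36 were negative, and -1.31 in the Lck-Cre 2 and floxed 2 pair, where 37 were. In the near-identical pair it was 0.07, with 12 of 37 negative. Without Lck-Cre replicate 1 the median was -0.36, without floxed replicate 2 it was -0.49, without Lck-Cre replicate 2 it was -1.69, and without both alike libraries -1.82. The summed level was 851 and 1665 TPM in Lck-Cre, against 1791, 3958 and 1603 TPM in floxed, with 1308 TPM in the vehicle library. Lck-Cre replicate 1 was thus the lowest and floxed replicate 2 the highest, while the alike libraries stood together between them.

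Oasl2, an antiviral gene related to the 2',5'-oligoadenylate synthetases, was at 19.7 and 61.4 TPM in Lck-Cre and at 221, 240 and 65.8 TPM in floxed libraries. Its log2 fold change was -2.09 ± 0.72 SE (unadjusted p = 0.0280 in limma), the most negative of all genes tested. Gbp2, an interferon-induced GTPase, was at 30.3 and 52.1 TPM in Lck-Cre and at 149, 289 and 51.8 TPM in floxed libraries. Floxed replicate 3 matched Lck-Cre replicate 2 in both genes, and the other floxed libraries were several times higher. Oasl2, Oas1a, Isg20 and Ifih1 were the 4 of 37 whose libraries did not overlap, all below floxed (5.41% of all tested genes). Oas1a, a sensor enzyme for double-stranded RNA, was at 7.08 and 16.7 TPM in Lck-Cre and at 21.6, 42.8 and 17.6 TPM in floxed. Ifih1, the RNA sensor MDA5, was at 10.5 and 25.2 TPM in Lck-Cre and at 25.4, 39.3 and 27.0 TPM in floxed. Ifit3, of the same list, was at 3.74 and 17.8 TPM in Lck-Cre and at 10.6, 115 and 18.0 TPM in floxed, so the groups overlapped and 1 floxed library was far above the rest. Ifit3 shares sequence with its paralog Ifit3b, and reads may be split between them. Related genes outside the list, Ifi204 and Ifi211, of the interferon-induced DNA-sensing family, were among the 10 most negative non-overlapping genes. Ifi204 was at 12.6 and 33.2 TPM in Lck-Cre and at 87.4, 78.1 and 36.0 TPM in floxed, but family members at this locus are close copies and their counts are uncertain.

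MHC and antigen processing genes, many of which also respond to interferon, were negative in 21 of 23 cases with a median of -0.26, and in 3 of 23 cases in the near-identical pair. Without Lck-Cre replicate 1 the median was 0.16, and without floxed replicate 2 it was 0.02. Psmb9, a subunit of the immunoproteasome, was at 69.3 and 97.1 TPM in Lck-Cre and at 94.9, 162 and 93.9 TPM in floxed. No MHC gene had libraries that did not overlap.

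**Figure D3:**
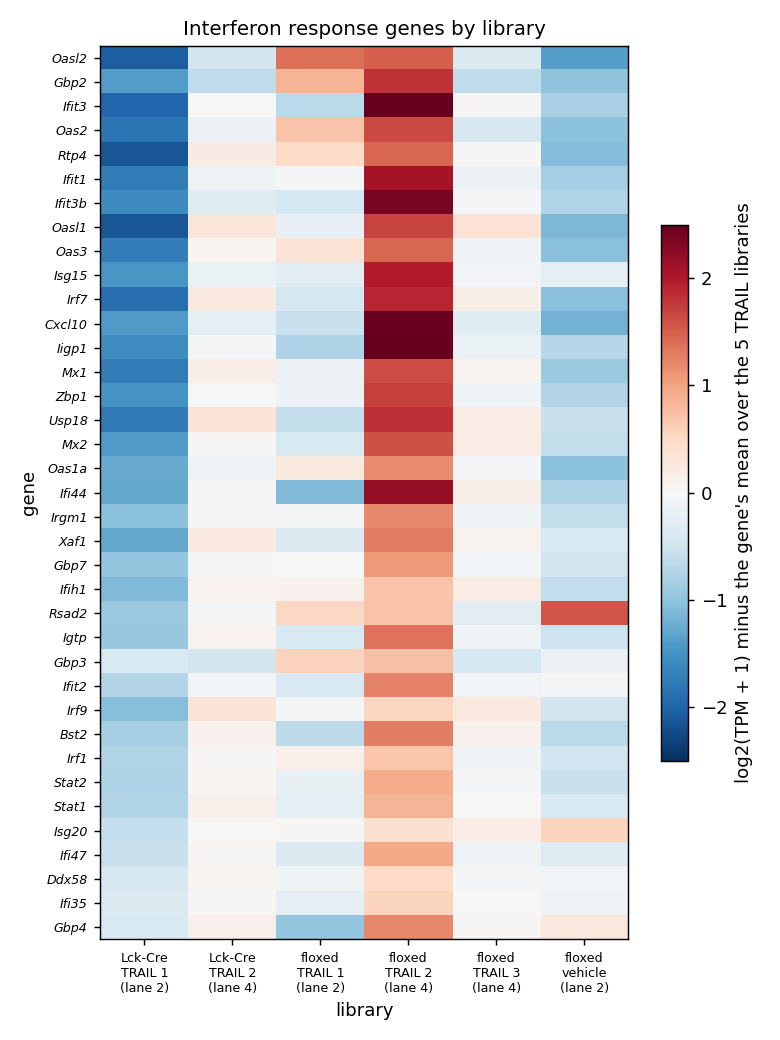
Interferon response genes (37 rows, ordered by log2 fold change) in each library, as log2(TPM + 1) minus the gene's mean over the 5 TRAIL libraries, red above and blue below. Lck-Cre replicate 1 is the lowest column and floxed replicate 2 the highest, and Lck-Cre replicate 2 and floxed replicate 3 look alike.

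Promoters of these genes were read because the members varied together across the libraries. RefSeq promoters (GRCm38.p6) were at hand for 28 of the 37. The interferon-stimulated response element, in the simplified form TTTC, any 2 bases, TTTC, or on the other strand GAAA, any 2 bases, GAAA, was sought in the 250 bases before the start. It was present in 15 of 28 (53.6%), against 936 of 27025 genes with a promoter (3.46%) and 3.49% of tested genes with one. The list was picked as interferon response genes, so this share describes the list and not a difference between the groups. Of the cell cycle list 1 of 31 genes with a promoter held it (3.23%), of the ribosomal protein list 6 of 37 (16.2%) and of the T cell receptor machinery 0 of 24. The 3 most negative genes with a match (Gbp2, Ifit3 and Ifit1) and Oas1a, the non-overlapping gene with a match, are shown 5′ to 3′ on the gene's strand, with matches in capitals. They lie at chr3:142620413-142620662 (plus), chr19:34583279-34583528 (plus), chr19:34640639-34640888 (plus) and chr5:120907526-120907775 (minus).
Gbp2: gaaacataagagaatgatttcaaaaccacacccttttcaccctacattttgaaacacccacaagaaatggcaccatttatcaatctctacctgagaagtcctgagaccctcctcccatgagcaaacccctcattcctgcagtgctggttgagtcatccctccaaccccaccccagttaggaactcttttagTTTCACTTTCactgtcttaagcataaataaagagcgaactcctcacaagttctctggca
Ifit3: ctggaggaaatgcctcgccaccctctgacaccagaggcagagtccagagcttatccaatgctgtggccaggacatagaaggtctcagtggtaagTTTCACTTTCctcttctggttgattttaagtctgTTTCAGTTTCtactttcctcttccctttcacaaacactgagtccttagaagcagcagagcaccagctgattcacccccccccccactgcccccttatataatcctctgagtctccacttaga
Ifit1: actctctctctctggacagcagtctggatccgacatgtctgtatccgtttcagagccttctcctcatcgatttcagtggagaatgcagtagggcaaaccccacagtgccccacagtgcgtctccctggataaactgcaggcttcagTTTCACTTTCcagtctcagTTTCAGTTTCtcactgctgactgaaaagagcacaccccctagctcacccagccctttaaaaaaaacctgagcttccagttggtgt
Oas1a: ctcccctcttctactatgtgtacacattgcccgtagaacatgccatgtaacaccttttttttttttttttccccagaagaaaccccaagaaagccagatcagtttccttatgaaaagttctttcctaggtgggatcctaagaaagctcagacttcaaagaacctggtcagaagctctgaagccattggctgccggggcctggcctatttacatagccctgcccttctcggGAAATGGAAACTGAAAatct
Overlapping matches on the other strand were joined in Oas1a. Oasl2, the most negative gene, held no match in this window. A match is a description of letters and not a site, and binding was not measured.

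Cell cycle genes were negative in the median of every pair. All 40 had a negative log2 fold change, with a median of -0.41, -0.70 in the lane 2 pair, -0.13 in the Lck-Cre 2 and floxed 2 pair and -0.22 in the near-identical pair. In the last 40 of 40 were negative, and 29 of 40 in the pair before it. The groups did not overlap for 11, all below floxed (5.41% of all tested genes). Of those 2, Plk1 and Aurka, had an unadjusted p under 0.05 (0.212% of all tested genes in that direction). Plk1, a mitotic kinase, was at 52.7 and 72.0 TPM in Lck-Cre and at 84.8, 97.9 and 88.9 TPM in floxed libraries, a log2 fold change of -0.55 ± 0.20 SE (unadjusted p = 0.0361 in limma). Aurka, another mitotic kinase, was at 29.3 and 33.4 TPM in Lck-Cre and at 53.4, 43.8 and 41.2 TPM in floxed libraries (-0.54 ± 0.20 SE). Both were lowest in the vehicle library, at 42.9 and 22.0 TPM. Mki67, the proliferation marker, was at 304 and 230 TPM in Lck-Cre and at 478, 307 and 293 TPM in floxed, where the higher Lck-Cre value exceeded the lowest floxed one. Cdc6, which licenses replication origins, was at 13.3 and 41.7 TPM in Lck-Cre and at 33.9, 34.8 and 50.6 TPM in floxed, and Uhrf1, which maintains DNA methylation, at 46.5 and 107.6 against 86.1, 121 and 130 TPM. The summed level was 3269 and 4344 TPM in Lck-Cre, against 5278, 4613 and 5040 TPM in floxed, without overlap, and 3072 TPM in the vehicle library. Without Lck-Cre replicate 1 the median of the list was -0.25. Which cells of these mixed libraries were cycling was not tested.

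Genes of cytosolic ribosomal proteins were positive in 47 of 48 cases with a median of 0.23, and 20 of the 48 did not overlap, all above floxed (5.86% of all tested genes). The pair medians were 0.46, 0.24 and 0.05, with 12 of 48 negative in the near-identical pair, and without floxed replicate 1 the median was 0.07. Rps27 was at 663 and 647 TPM in Lck-Cre and at 261, 465 and 521 TPM in floxed libraries, and Rps28 at 857 and 559 against 485, 353.5 and 489 TPM. Floxed replicate 1 was the lowest library for Rps27 and floxed replicate 2 for Rps28. The vehicle library, with 788.5 and 1065 TPM, was above all TRAIL libraries in both. Ribosomal protein genes have many processed pseudogenes, between which reads can be split. Glycolysis genes were positive in 2 of 20 cases (median -0.16), and Gapdh was at 1252 and 1020 TPM in Lck-Cre against 1594, 1472 and 1103 TPM in floxed. Oxidative phosphorylation genes were positive in 12 of 33 cases (median -0.08), and Atp5b was at 715 and 1226 TPM in Lck-Cre against 1014, 1394 and 1429 TPM in floxed.

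Markers of other spleen cells overlapped between the genotypes in most cases. B cell genes were positive in 7 of 19 cases (median -0.06), and Blk, a B cell kinase, was at 64.6 and 88.2 TPM in Lck-Cre against 39.4, 95.0 and 77.1 TPM in floxed. Plasma cell genes were positive in 5 of 11 cases (median -0.05). Ighg1, an antibody constant gene, was at 3179 and 254 TPM in Lck-Cre and at 3596, 2953 and 317 TPM in floxed libraries, low in both members of the alike pair and high in all other TRAIL libraries. Macrophage genes were positive in 10 of 21 cases (median -0.07), and Marco, a scavenger receptor of marginal zone macrophages, was at 4.15 and 14.6 TPM in Lck-Cre against 6.24, 90.7 and 12.4 TPM in floxed. Cd163 of the same list went the other way, at 26.1 and 24.7 against 12.8, 6.72 and 23.3 TPM. Without overlap, 1 macrophage gene, Cd163, lay above floxed and 1 below (5.86% and 5.41% of all tested genes). Neutrophil genes were positive in 7 of 18 cases (median -0.14) and dendritic cell genes in 3 of 11 (-0.52). The neutrophil median was -0.95 without Lck-Cre replicate 1 and 0.62 without Lck-Cre replicate 2. The dendritic cell pair medians were -0.91, 0.37 and -0.04, and without Lck-Cre replicate 1 the median was 0.39. Erythroid genes were positive in 5 of 16 cases (median -0.55), but with opposite signs in the pairs (-1.47, 0.87 and -0.13). Stromal and endothelial genes were positive in 2 of 4 cases (median -0.03), with 10 of the 14 listed not tested. Platelet genes were positive in 9 of 10 cases (median 0.33), and 4 of the 10 did not overlap, all above floxed (5.86% of all tested genes). Pf4, a platelet chemokine, was at 15.6 and 14.9 TPM in Lck-Cre and at 9.35, 8.68 and 11.7 TPM in floxed libraries. Xist was at 133 to 156 TPM in all 6 libraries, and 4 Y-linked genes did not enter the test.

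Immunoglobulin V genes had a negative log2 fold change in 139 of 200 cases with a median of -0.26, and among those that did not overlap 3 lay above floxed and 22 below (5.86% and 5.41% of all tested genes). Ighv8-4 (chr12:115024026-115024459) had the largest positive fold change in the table, at 20.4 and 3.71 TPM in Lck-Cre and at 0.782, 0.617 and 1.47 TPM in floxed libraries. Ighv14-4 (chr12:114176438-114176867) was at 97.8 and 93.9 TPM in Lck-Cre and at 598, 216 and 111 TPM in floxed libraries. Such genes differ with the B cell clones present, and near-identical V genes can split reads. The other genes among the 10 most negative of those that did not overlap and had 1 sign on both lanes were Fabp4, Ighv1-70, Prr5l, Lrmda, Ighv1-47 and Smpdl3b. Fabp4, a fatty acid carrier of macrophages and fat cells, was at 2.05 and 3.38 TPM in Lck-Cre and at 3.49, 7.08 and 43.6 TPM in floxed, so that 1 floxed library set its fold change of -1.68.

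The smallest p-values in the table belonged to structural and short RNA genes, and their differences were also present in the near-identical pair. The 5 smallest unadjusted p were those of Rn7sk, Mir6236, Gm22513, Gm23935 and CT010467.1, all positive, and none passed the adjusted threshold. Rn7sk, the small nuclear RNA that holds back transcription elongation (chr9:78175303-78175633, minus), was at 35.3 and 48.4 TPM in Lck-Cre and at 10.6, 6.60 and 6.94 TPM in floxed libraries, with 13.9 TPM in the vehicle library. Its log2 fold change was 2.25 ± 0.29 SE (unadjusted p = 3.064e-04, adjusted p = 0.9998 in limma), and the pairs gave 1.65, 2.70 and 2.64. Mir6236 was at 2332 and 2792 TPM in Lck-Cre and at 892, 875 and 849 TPM in floxed libraries, a log2 fold change of 1.55 ± 0.22 SE, and the pairs gave 1.39, 1.67 and 1.72. The vehicle library, at 975 TPM, lay with the floxed libraries. In both genes the 2 Lck-Cre libraries stood clear of all others. Xkr6, a scramblase-related gene among the 10 most positive of the non-overlapping genes, was at 20.2 and 9.62 TPM in Lck-Cre and at 7.45, 1.02 and 8.62 TPM in floxed libraries, close together in the alike pair.

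Gm23935 (chr16:11144125-11144181, plus), annotated as a miRNA gene, was at 4649 and 6419 TPM in Lck-Cre and at 1313, 2059 and 1947 TPM in floxed libraries. Gm24270 (chr9:56223715-56223771, minus) was at 262 and 293 TPM in Lck-Cre and at 42.1, 132 and 72.1 TPM in floxed libraries. CT010467.1, annotated as ribosomal RNA (chr17:39846353-39848827, minus), was at 2477 and 3453 TPM in Lck-Cre and at 787.5, 1120 and 1322 TPM in floxed libraries. Gm22513, a small nuclear RNA gene, was at 8.05 and 7.51 TPM in Lck-Cre and at 0.791, 0.416 and 1.70 TPM in floxed, with 4.21 TPM in the vehicle library. Its levels rest on few reads, 35 and 14 in Lck-Cre and 2, 1 and 4 in floxed. In the near-identical pair the 4 genes of this paragraph differed by 1.72, 2.01, 1.38 and 1.66 on the log2 scale. Genes annotated as miRNA summed to 8495 and 10760 TPM in Lck-Cre, against 3152, 4355 and 3937 TPM in floxed, and ribosomal RNA genes to 2524 and 3532 against 826, 1182 and 1384 TPM. Of all 67 tested miRNA genes, these included, 36 were positive, with a median of 0.15. Without overlap, 12 of the 67 lay above floxed and 6 below, where 5.86% and 5.41% of all tested genes did. CT010467.1 made up most of the ribosomal RNA sum. Of all 10 tested ribosomal RNA genes 4 were positive, with a median of -0.09. Without overlap, 1 of the 10 lay above floxed and 1 below (5.86% and 5.41% of all tested genes).

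The sequences show how far these genes can be told apart by reads. In GENCODE vM21 transcripts (GRCm38) the 57 bases of Gm23935 and Gm24270 are identical, and Gm24245 has them too, so their levels cannot be separated. Both are shown 5′ to 3′ in lower case.
Gm23935: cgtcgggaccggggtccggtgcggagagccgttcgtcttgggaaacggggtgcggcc
Gm24270: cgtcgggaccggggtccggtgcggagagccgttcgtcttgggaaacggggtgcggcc
CT010467.1 shared 66.8% of its windows of 30 bases with Gm42418 on the opposite strand and 49.1% with AY036118, so reads can also be split there. Gm22513 shared 77.8% of its windows with the U1 gene Rnu1a1. Rn7sk has copies as well, and shared 70.2% of its windows with Gm24447. The part of library preparation, and of the ribosomal RNA each library kept, was not tested.

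**Figure D4:**
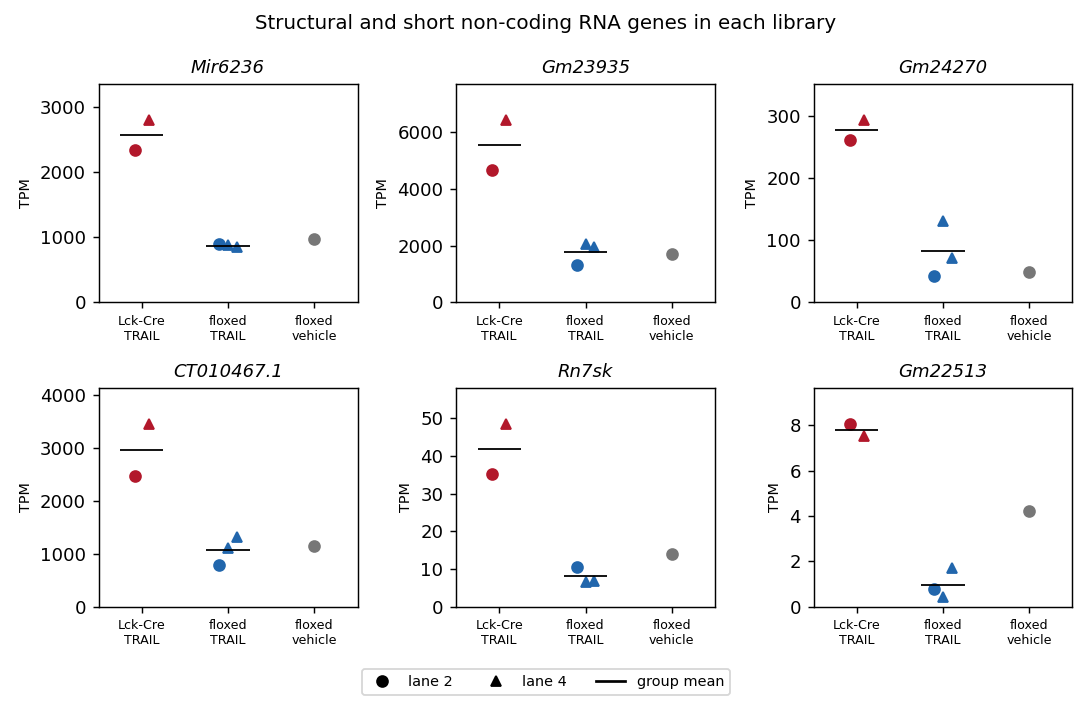
TPM of Mir6236, Gm23935, Gm24270, CT010467.1, Rn7sk and Gm22513 in each library, for Lck-Cre TRAIL (2 libraries), floxed TRAIL (3) and floxed vehicle (1), with circles for lane 2, triangles for lane 4 and lines at group means. In all 6 panels both Lck-Cre libraries lie above the floxed and vehicle libraries, on both lanes.

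**Figure D5:**
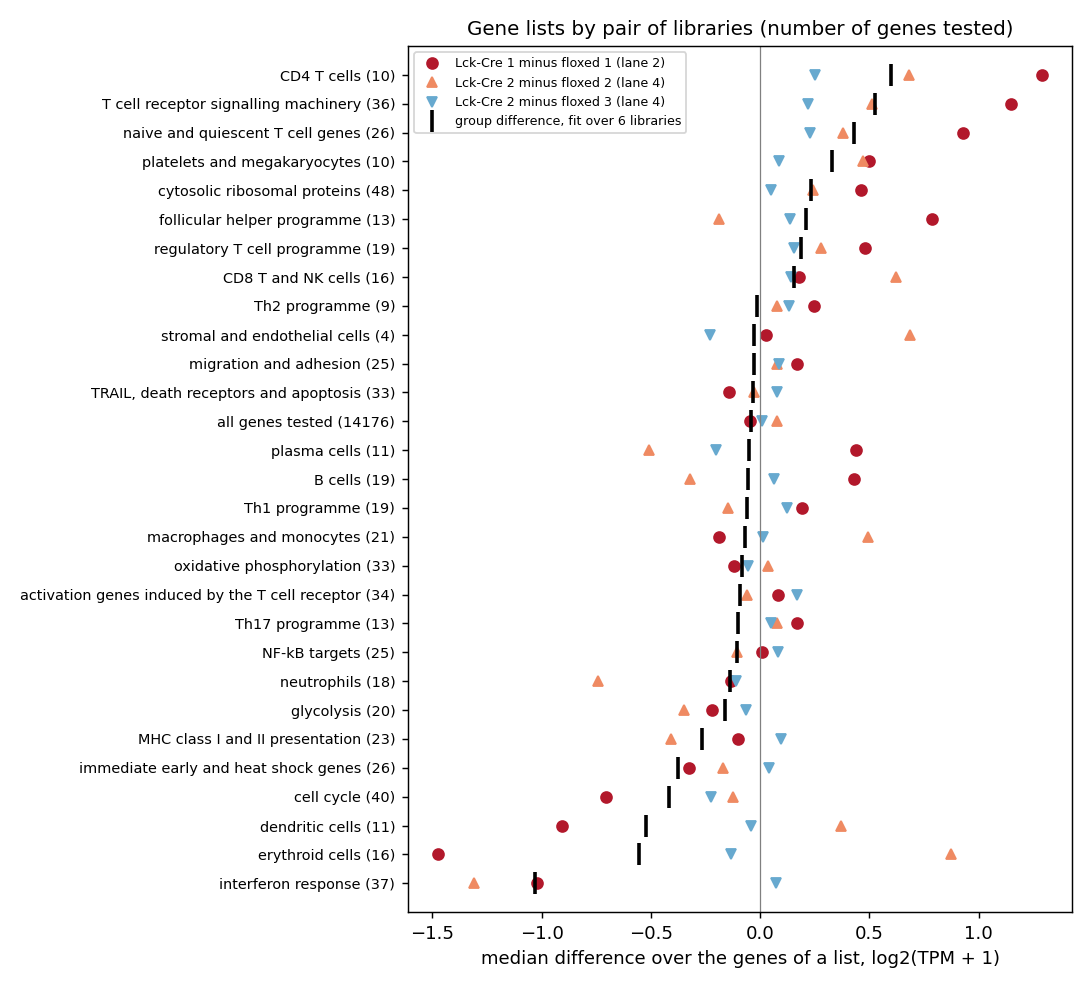
Median difference of each gene list on the log2(TPM + 1) scale, by pair of libraries, with the group difference of the fit as a black bar and the number of genes tested in brackets. In the near-identical pair (blue) the interferon list lies at 0.07, while the cell cycle list is negative in all 3 pairs.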

How the data were processed

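RNA sequencing of spleen CD4 T cell libraries was analysed from 1 gene table of the mouse experiment. The deposited values were taken as TPM: the headers name only the libraries, and each column sums to 1000000. Per the submitters' processing notes, the tools were bcl2fastq, Trimmomatic 0.36, HISAT2 2.1.0, SAMtools 1.2, StringTie 2.1.4 and DESeq2 1.26.0 with the build GRCm38.p6, with no role given. Strandedness of counting is not given in the sources used here. The 6 z-score columns and the deposited fold changes were not used. No gene was at 0 in any of the 6 libraries, so genes with a 0 may have been removed before deposit. Multiplied by gene length, the values of a library came out as whole multiples of a common unit (deviation at most 2.42e-08), which was taken as 1 read to give the depth. At the median gene length 1 TPM stood for 21.2 to 67.4 reads, which limits precision near 1 TPM.

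Log2(TPM + 1) was fitted with limma 3.58.1 in R 4.3.3, with a trend of variance on mean, over all 6 mouse libraries with 1 coefficient per group (3 residual degrees of freedom). The lone vehicle library adds nothing to the spread and was assumed to vary like the others. The scale understates the change of low genes. Genes had a mean TPM of at least 1. P-values were two-sided, adjusted by the Benjamini-Hochberg method over 14176 genes, with a threshold of 0.05. The fit was tested on simulated data. Grouping used the titles, and gene positions come from GENCODE, matched by identifier for 99.9% of tested genes. Named genes were a fixed set of TRAIL, T cell and cycle genes, the 10 largest fold changes per direction among genes whose libraries did not overlap and whose lanes shared a sign, and up to 2 genes of each of 29 lists. The members and lists were chosen with earlier results of these data known. Alternatives were 2 pseudocounts, 2 filters, scaling by the median of ratios, lane as a covariate, the replicate block, no variance trend, no vehicle library and each replicate left out. Lane with scaling, and both alike libraries left out, were added after seeing the data. A few items are not reported here.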

Additional observations from a re-analysis of the deposited data

How the results depend on the processing

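By limma, 0 genes had an adjusted p under 0.05, over all genes and over the lists, in the main fit and in all alternatives run. With lane as a covariate the smallest adjusted p was 0.7045. At an unadjusted p under 0.05 the count was 106, against 229 with no filter, 69 at a mean TPM of at least 5, 184 with median-of-ratios scaling, 884 with lane as a covariate, 917 with lane and scaling, and 509 without both alike libraries. Leaving out 1 replicate gave 35 (without floxed replicate 2) to 744 (without Lck-Cre replicate 2), with 70 without Lck-Cre replicate 1 and 219 without floxed replicate 3. The 1598 genes whose libraries did not overlap became 2438 to 7490 with 1 replicate left out, as fewer libraries overlap less. The cause of the other moves was not tested. The replicate block gave 1335 genes at an unadjusted p under 0.05 and a smallest adjusted p of 0.3058. Same-numbered libraries share a lane label as well as a number, and no other link is given for them. The block therefore cannot tell a pairing of replicates from the lane. Floxed replicate 3 has no same-numbered Lck-Cre library, so its block term took up that library alone. The block thus gave the same fold changes as leaving out floxed replicate 3, with 0.54 for Tnfrsf10b in both. Deviations of same-numbered libraries had r = 0.696 for replicate 1 and 0.220 for replicate 2. Tnfrsf10b kept a positive fold change in all alternatives. Of 448 list medians under alternatives, 429 moved by less than the spread between replicates and 19 by more. That rule does not score the sign. Medians ranged from -0.95 to 0.62 for neutrophil genes and from -0.46 to 0.48 for activation genes. For immediate early and heat shock genes the range was -0.93 to 0.11. Other lists changed sign too, while the interferon, cell cycle and ribosomal protein lists did not.

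Of 1384 fold changes of 87 named genes under alternatives, 61 had the opposite sign. Tnfsf10 was -0.0080 with a pseudocount of 5. Tbx21 was 0.13 with the lane covariate, 0.066 with the block and 0.10 with lane and scaling, and Myc was 0.052, 0.0043 and 0.017. Cflar was -0.038 with the block and -0.012 with lane and scaling. Without both alike libraries Tnfsf10 was -0.28, Foxp3 -0.027, Gata3 -0.087, Il2ra -0.27, Cd69 -0.094 and Pecam1 -0.10. With 1 replicate left out, log2 fold changes ranged over Tnfsf10 -0.36 to 0.36, Cd3e -0.025 to 0.99, Cd8a -0.28 to 0.89, Foxp3 -0.35 to 0.83, Tbx21 -0.65 to 0.48, Ifng -0.82 to 0.33 and Gata3 -0.45 to 0.93. Likewise the ranges were Il2ra -0.44 to 0.53, Cd69 -0.45 to 0.69, Myc -0.47 to 0.25, Casp8 -0.048 to 0.012, Cflar -0.058 to 0.15, Fas -0.56 to 0.16 and Egr1 -1.07 to 0.16. Further ranges were Ccl4 -1.49 to 0.21, Ccr4 -0.055 to 0.80, Cd83 -0.84 to 0.064, Cdc6 -1.49 to 0.090, Ndufa1 -0.19 to 1.03, Ccr7 -0.15 to 1.14, Tap1 -0.96 to 0.081 and Ighd -0.22 to 0.51. The last were Blk -0.18 to 0.45, Ighg1 -2.56 to 1.08, Ighg2c -1.77 to 0.44, S100a8 -0.98 to 2.35, Batf3 -1.45 to 0.0016, Stab2 -0.29 to 0.81 and Pecam1 -0.28 to 0.46.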
